A study of Mus musculus with 4 samples.

Results

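The genes of the cytosolic ribosomal proteins were followed in cultured muscle stem cells (MuSC) with and without the arginine methyltransferase Prmt5. Members were all protein-coding rows of the deposited gene table whose symbol starts with Rpl or Rps and a digit, together with Rplp0, Rplp1, Rplp2 and Rpsa, with the S6 kinases and pseudogenes left out. The rule found 83 genes among the 20065 genes of the table, 49 with large-subunit and 34 with small-subunit names. Among the latter, Rps19bp1 encodes a protein that binds Rps19 and is not itself part of the ribosome, so 33 small-subunit genes remain. Rpl3l, Rpl10l and Rpl39l, tissue-restricted relatives of Rpl3, Rpl10 and Rpl39, met the rule in the annotation but were not analysed here.

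RNA-seq data from 4 libraries were compared. Both groups were satellite cells from limb and trunk muscles of adult C57BL/6 mice that carried the tamoxifen-inducible Cre recombinase under control of Pax7, the transcription factor that marks MuSC. Control cells were Pax7CreERT2/Prmt5+/loxP (+TAM), in which Cre can remove 1 of the 2 Prmt5 alleles, and Prmt5sKO cells were Pax7CreERT2/Prmt5loxP/loxP (+TAM), with 2 libraries each. As the methods of the study describe, the RNA came from cultured cells treated with 4-OH tamoxifen. The labels do not say whether the 2 libraries of a group came from separate animals. Their levels of Xist, given below, differ too widely within each group for repeat libraries of the same cells, and p-values measure the spread between these libraries.

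The cytosolic ribosome consists of a large subunit, which forms peptide bonds, and a small subunit, which decodes the mRNA. Each ribosomal protein is needed in a fixed number of copies per particle, and cells that grow and divide spend a large part of their transcription on these genes. Their mRNAs usually begin with a C followed by a stretch of pyrimidines, the 5′ terminal oligopyrimidine (TOP) motif, through which the kinase mTOR and the binding protein Larp1 control their translation. MuSC that leave quiescence enlarge their ribosome pool, and differentiating cells reduce ribosome production.

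The start sequences of 8 members show this motif and its exceptions. RefSeq (GRCm38.p6) listed a start for 63 of the 83 members. Each line gives 30 bases on the strand of the gene, 15 before and 15 from the start onwards. Capitals mark a run of at least 5 C and T that opens with C within 10 bases of the start, as far as the window shows it. Unless it opens exactly at the start, the base before this C must be neither C nor T. Stretches that follow another C or T were therefore not marked or counted. Rpl35 and Rps12 are shown as the members with the highest and the lowest log2 fold change, Rps6 and Rps10 as clear TOP starts, Rps2 for its level in 1 library, and Rps27 with its relatives Rps27l and Rps27rt because the ratio of Rps27l to Rps27 differed between the groups.
Rpl35 (chr2:39005117-39005146, minus strand): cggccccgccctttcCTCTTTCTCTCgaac
Rps12 (chr10:23787195-23787224, minus strand): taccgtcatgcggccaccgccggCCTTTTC
Rps6 (chr4:86857353-86857382, minus strand): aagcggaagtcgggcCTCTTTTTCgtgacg
Rps10 (chr17:27635230-27635259, minus strand): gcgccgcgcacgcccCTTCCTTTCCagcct
Rps2 (chr17:24720048-24720077, plus strand): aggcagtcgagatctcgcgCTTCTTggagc
Rps27 (chr3:90213634-90213663, minus strand): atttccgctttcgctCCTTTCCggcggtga
Rps27l (chr9:66946071-66946100, plus strand): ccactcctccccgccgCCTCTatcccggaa
Rps27rt (chr9:114982725-114982754, minus strand): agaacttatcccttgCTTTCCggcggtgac

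A run that opened exactly at the listed start was found in 14 of the 63 members (22.2%), against 3.01% of the 27025 genes with a listed start. A run that opened within 10 bases on either side, by the definition above, was found in 32 members (50.8%), against 26.8% of those genes. In Rps6, Rps10 and Rpl35 the run opened at the start, in Rps27l it opened 1 base, in Rps2 4 bases and in Rps12 8 bases downstream of it. Rps27rt, a retrogene of Rps27, shared with Rps27 the letters that follow the run. A match is a description of these letters and not of binding or translation, and a listed start can differ from the start used in these cells.

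The recovered read counts summed to between 13240754 and 20047430 per library, and the libraries of each group are called deeper and shallower by this total. As a check of the labels, Prmt5 reached 2273 normalized counts in the deeper control library and 2906 in the other one, while the Prmt5sKO libraries held 244 (deeper) and 202 (shallower). Normalized counts are reads scaled by TMM to the mean library size. The MuSC markers Pax7, Myf5, Myod1 and Des were present in all 4 libraries, and the 4 myogenic markers summed to between 30231 and 51541 normalized counts. All 10 markers of differentiating muscle were highest in the shallower Prmt5sKO library. Their median log2 difference from control was 4.67 in this library and 0.83 in the deeper Prmt5sKO library, and the shallower control library had a median of -0.95 against the deeper one. Acta1, skeletal muscle actin, had 2366 (deeper) and 1001 (shallower) normalized counts in control and 4951 (deeper) and 60227 (shallower) in Prmt5sKO. Summed, the markers came to 380960 in the shallower Prmt5sKO library and to between 44105 and 95795 in the other libraries, sums in which Ttn alone took between 28427 and 90033. The 3 endothelial markers tested summed to at most 149 and the 4 fibroblast markers tested to at most 217. Of the 5 blood markers, Ptprc, Adgre1 and Cd3e were not analysed here, and the other two summed to at most 112. Xist, the RNA of the inactive X chromosome, had 8668 normalized counts in the deeper control and 5655 in the shallower Prmt5sKO library, but 23.3 in the shallower control and 8.15 in the deeper Prmt5sKO library. The libraries of a group therefore differ in Xist and in differentiation, and how far either contributes to the values of ribosomal protein genes was not tested. In RNA from a whole culture, fewer cells of a kind and less RNA per cell cannot be told apart.

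The first question was whether loss of Prmt5 changed the mRNA level of ribosomal protein genes. None of the 83 members was called in limma-voom with Benjamini-Hochberg adjustment over 16212 tested genes, where a call needs both an adjusted p no higher than 0.05 and a 2-fold or larger change. Over all genes 0 were called (0%), and the smallest adjusted p was 0.193 over all genes and 0.286 among members. Even Prmt5 itself, with a log2 fold change of -3.52 and an adjusted p of 0.193 in limma-voom, was not called. A gene without a call in this fit may therefore still have changed. The study, which used DESeq2, reported changed genes at its own threshold. With limma-trend 0 genes were called as well. An unadjusted p under 0.05 was found for 6 members, against 2101 of all genes (13.0%), and 3 of the 6 were higher (6.01% of all genes) and 3 lower (6.95%) in Prmt5sKO. In 16 of the 83 members both Prmt5sKO libraries exceeded both control libraries (25.2% of all genes) and in 20 both lay below (23.6%). Without the deeper Prmt5sKO library 489 of 15927 genes (3.07%) and 0 members were called, and in a fit that pairs the libraries alike in Xist 346 genes (2.13%) and 0 members. At shares this small few of the 83 members would be called, so 0 does not set them apart from all genes. The former fit rests on a lone Prmt5sKO library, the one highest in the markers of differentiating muscle. That library was assumed to vary like the control libraries.

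The median log2 fold change of the members was 0.03, with 43 above and 40 below 0, beside a median of 0.02 over all genes tested. The medians were 0.00 for the 49 large-subunit and 0.09 for the 33 small-subunit genes. The members spread over a range of -0.70 to 1.16 with an SD of 0.39, while other protein-coding genes at the same levels had an SD of 0.59 around a median of -0.04. For 70 members the log2 fold change lay between -0.5 and 0.5, and only Rpl35 reached a 2-fold change. The 95% confidence interval of the log2 fold change had a median half-width of 0.59. It lay within a 2-fold change in either direction for 57 members and reached a 2-fold change for 26, so for the latter a change of that size was neither detected nor excluded with these libraries.

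**Figure D1:**
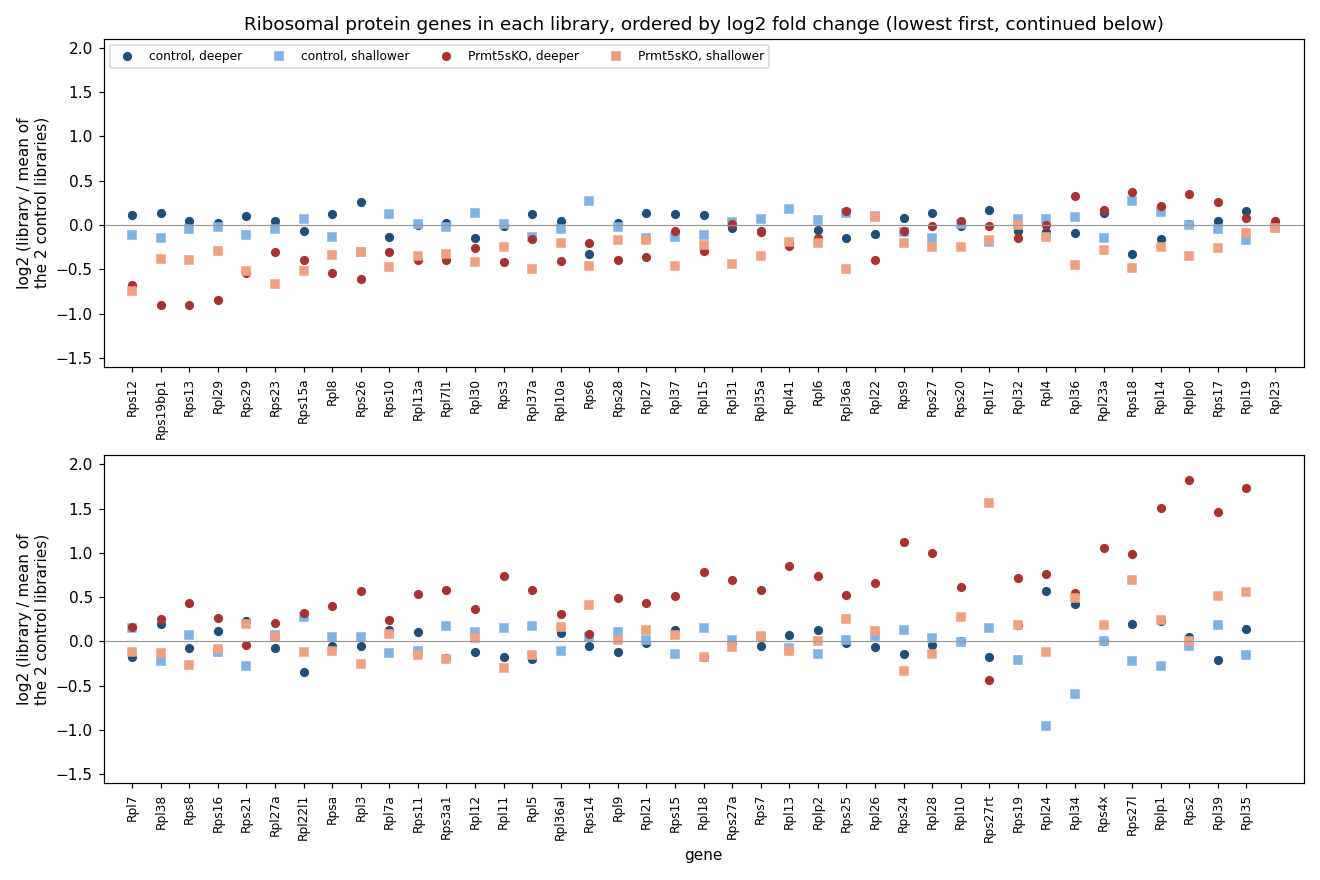
Level of 81 ribosomal protein genes in each of the 4 libraries, as log2 of the normalized count over the mean of the 2 control libraries (y axis), with genes ordered by log2 fold change from the lowest to the highest (x axis, both panels). Circles are the deeper and squares the shallower library of a group. The deeper Prmt5sKO library lies far above the others for Rps2, Rpl35, Rplp1 and Rpl39, while both Prmt5sKO libraries lie below both control libraries for Rps12.

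The 2 Prmt5sKO libraries differed in the reads of the members as a whole. Expressed per 1000000 reads of all genes (RPM), the summed reads of the control libraries came to 30810 RPM (deeper) and 29859 RPM (shallower). For Prmt5sKO the deeper library had 44133 RPM and the shallower one 28661 RPM. The Prmt5sKO libraries thus held the highest and the lowest sum, and the groups overlapped. The means were 30335 ± 672 for control and 36397 ± 10940 for Prmt5sKO (SD, n = 2), with p = 1.0 in an exact two-sided permutation test, whose smallest possible p at 2 against 2 libraries is 0.33. Taken per 1000000 reads of protein-coding genes alone the control sums were 34956 (deeper) and 35742 (shallower), and those of Prmt5sKO were 47362 (deeper) and 32285 (shallower). The large-subunit genes took 25064 RPM and the small-subunit genes 19055 RPM in the deeper Prmt5sKO library, against 18182 and 12601 in the deeper control library, so both subunits shared in the excess.

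**Figure D2:**
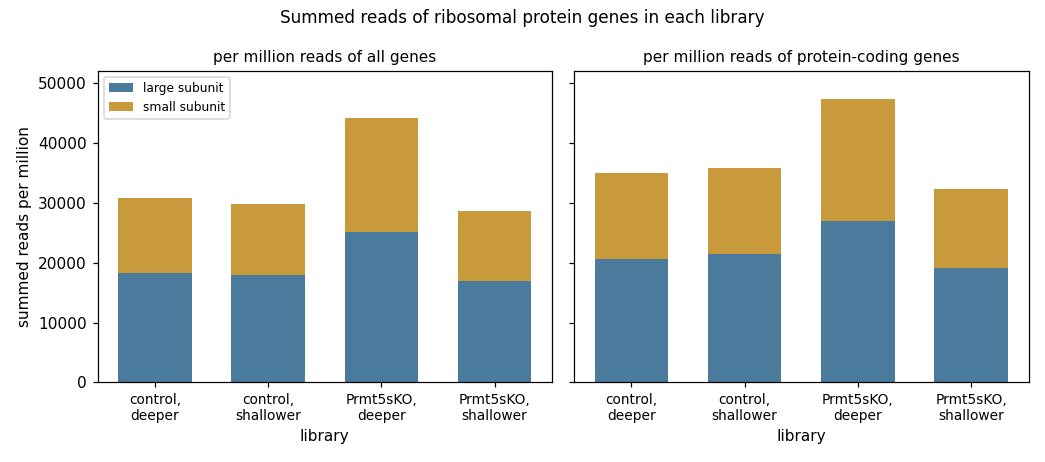
Summed reads of large-subunit and small-subunit genes (stacked bars) in each of the 4 libraries, per 1000000 reads of all genes (left) and per 1000000 reads of protein-coding genes (right). The bar of the deeper Prmt5sKO library reaches 44133 on the left and 47362 on the right and is the tallest in both panels, and that of the shallower Prmt5sKO library is the shortest.

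The deeper Prmt5sKO library was the highest of the 4 for 48 of the 83 members, while it was the highest for 25.7% of all genes tested and for 25.4% of 5424 other protein-coding genes at the same levels. The shallower Prmt5sKO library was the lowest for 34 members, against 27.6% of all genes and 33.3% of those at the same levels. Against the mean of the control libraries, the members of the deeper Prmt5sKO library had a median log2 difference of 0.22 and those of the shallower one of -0.16, and over all genes it was 0.04 and 0.03. Without the deeper Prmt5sKO library the median log2 fold change of the members was -0.16, and without the shallower one it was 0.22. The mRNA for Rps2, a small-subunit protein near the entry of the mRNA channel, contributed most to the excess, and without it the sums were 40483 RPM in the deeper Prmt5sKO library and 27714 to 29835 in the other libraries.

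The lowest log2 fold change belonged to Rps12, a small-subunit protein whose gene hosts 3 small nucleolar RNA rows. In the control libraries Rps12 had 7366 (deeper) and 6287 (shallower) normalized counts, while the deeper Prmt5sKO library had 4274 and the shallower one 4077. The groups did not overlap, and each Prmt5sKO library was lower than the lower control library (log2 fold change -0.70 ± 0.21 SE, unadjusted p = 0.014 and adjusted p = 0.295 in limma-voom). Its value stayed between -0.81 and -0.60 under all 11 alternatives.

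Rps13, another small-subunit protein, had 3286 and 3065 normalized counts in control and 1692 and 2418 in Prmt5sKO, in the order deeper and shallower that is kept from here on. Rps29, a small zinc-binding protein of the small subunit, had 1751 and 1510 in control and 1117 and 1141 in Prmt5sKO. Rps19bp1 had 435 and 358 in control and 212 and 304 in Prmt5sKO. In all 3 genes both Prmt5sKO libraries lay below both control libraries, with log2 fold changes of -0.65 for Rps13, -0.53 for Rps29 and -0.67 for Rps19bp1 and adjusted p-values of 0.354, 0.360 and 0.409 in limma-voom.

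The other 4 of the 8 lowest members had, like Rps19bp1, no unadjusted p under 0.05. Rpl29, a large-subunit protein, had 1729 and 1686 normalized counts in control and 952 and 1396 in Prmt5sKO. Rps23, which lies at the decoding centre, had 2838 and 2647 in control and 2218 and 1733 in Prmt5sKO. Rps15a had 6594 and 7263 in control and 5256 and 4833 in Prmt5sKO. Last of them, Rpl8 contacts the peptidyl transferase centre of the large subunit and was one of the more abundant members, with 14414 and 11958 in control and 9052 and 10455 in Prmt5sKO. These 4 genes had log2 fold changes from -0.57 to -0.43, and none of their groups overlapped.

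At the other end Rpl35, a large-subunit protein near the exit of the peptide tunnel, had 435 and 354 normalized counts in control and 1306 and 580 in Prmt5sKO. Both Prmt5sKO libraries were above both control libraries, but the deeper one stood far above the shallower one (log2 fold change 1.16 ± 0.45 SE, unadjusted p = 0.041 and adjusted p = 0.364 in limma-voom). Without the deeper Prmt5sKO library the log2 fold change was 0.56. Exons of other genes, on either strand, cover 66.2% of the exon bases of Rpl35. Reads that overlap several genes were left unassigned, according to the study's overview of its runs. The counted reads may therefore come from only part of this gene, and whether the counting kept the strands apart was not checked.

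Rpl39, a short protein that lines the peptide tunnel and is encoded on the X chromosome, had 1164 and 1536 normalized counts in control and 3702 and 1921 in Prmt5sKO. Again the groups did not overlap and the deeper Prmt5sKO library was the highest (log2 fold change 1.00 ± 0.35 SE, adjusted p = 0.341 in limma-voom). Without this library it was 0.53.

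Rps27l is a close relative of Rps27 and known as a target of p53. It had 1561 and 1167 normalized counts in control and 2707 and 2202 in Prmt5sKO, so that each Prmt5sKO library exceeded both control libraries (log2 fold change 0.85 ± 0.24 SE, unadjusted p = 0.012 and adjusted p = 0.286 in limma-voom). This was the lowest p among the members, and the log2 fold change stayed between 0.65 and 1.05 under the 11 alternatives.

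In Rps2 the difference rested on 1 library. Its mRNA had 15893 and 14747 normalized counts in control and 54216 and 15421 in Prmt5sKO, so that 3 libraries were close together and the groups overlapped. The log2 fold change was 0.90 ± 0.55 SE (adjusted p = 0.509 in limma-voom). It was 0.01 without the deeper Prmt5sKO library and 1.82 without the shallower one, where Rps2 was the only member called (adjusted p = 0.0424). In that comparison 55 of 16070 genes were called (0.342%), and 25 members had an unadjusted p under 0.05 (16.2% of all genes). Its lone Prmt5sKO library was assumed to vary like the control libraries.

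Rplp1, Rps4x and Rpl34 were also among the 8 highest members and showed the same order of the Prmt5sKO libraries. Rplp1 had 6224 and 4396 normalized counts in control and 15062 and 6255 in Prmt5sKO. Rps4x, the X-linked form of Rps4, had 8002 and 7999 in control and 16590 and 9078 in Prmt5sKO. In both genes the shallower Prmt5sKO library was only slightly above the higher control library, and leaving out the deeper one gave log2 fold changes of 0.26 for Rplp1 and 0.18 for Rps4x. In Rpl34, a large-subunit protein, the control libraries differed instead, with 4395 and 2168 in control and 4792 and 4603 in Prmt5sKO.

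In the large subunit the stalk recruits the elongation factors and consists of Rplp0, the anchor, with Rplp1 and Rplp2. Rplp0, the most abundant member per kilobase, had 32763 and 32520 normalized counts in control and 41652 and 25665 in Prmt5sKO. Its 2 Prmt5sKO libraries lay on either side of the control libraries, and the log2 fold change was 0.00 (95% interval -0.71 to 0.70). Rplp2 had 6967 and 5783 in control and 10659 and 6413 in Prmt5sKO (log2 fold change 0.38). Rpsa, which doubles as a laminin-binding protein, had 13221 and 14175 in control and 18088 and 12683 in Prmt5sKO (0.14).

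Rpl5 and Rpl11 form the 5S particle with 5S rRNA and can bind Mdm2, the ubiquitin ligase of p53, as can Rpl23, while Rpl26 is known to bind the p53 mRNA. Rpl5 had 3087 and 3980 normalized counts in control and 5290 and 3183 in Prmt5sKO. Rpl11 had 7669 and 9637 in control and 14395 and 7042 in Prmt5sKO. For both, the deeper Prmt5sKO library was the highest and the shallower one was close to the lower control library or below it, with a log2 fold change of 0.22 each. Rpl26 had 5701 and 6232 in control and 9402 and 6489 in Prmt5sKO, which did not overlap (log2 fold change 0.39, adjusted p = 0.528 in limma-voom). Rpl23 hardly moved, with 6490 and 6197 in control and 6567 and 6169 in Prmt5sKO (95% interval -0.48 to 0.49).

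Of the small-subunit genes chosen for their roles, Rps3, which also acts in DNA repair, had 16881 and 17047 normalized counts in control and 12686 and 14302 in Prmt5sKO (log2 fold change -0.33). Rps6, the substrate of the S6 kinases, had 2305 and 3473 in control and 2512 and 2100 in Prmt5sKO (-0.30, groups overlapping). Rps10, a known substrate of Prmt5, had 2590 and 3081 in control and 2301 and 2041 in Prmt5sKO (-0.38). Rps3 and Rps10 were lower in both Prmt5sKO libraries, with adjusted p-values of 0.518 and 0.470 in limma-voom. Rps19, mutated in Diamond-Blackfan anaemia, had 6490 and 4928 in control and 9405 and 6502 in Prmt5sKO (0.46). Its shallower Prmt5sKO library and the deeper control library were nearly equal.

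Of the large-subunit genes chosen for their roles, Rpl10, which joins late in assembly and is X-linked, had 4761 and 4732 normalized counts in control and 7254 and 5761 in Prmt5sKO (log2 fold change 0.44, adjusted p = 0.428 in limma-voom). Both control libraries were nearly equal and both Prmt5sKO libraries higher. Rpl38, known for its role in the translation of Hox mRNAs, had 1293 and 966 in control and 1341 and 1029 in Prmt5sKO (0.07), with overlapping groups. A further 40 members had log2 fold changes between -0.43 and 0.43 and adjusted p-values of 0.467 or above in limma-voom, with 5 higher and 8 lower in both Prmt5sKO libraries, beside 25.2% and 23.6% of all genes.

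The X chromosome encodes 4 members, Rps4x, Rpl10, Rpl39 and Rpl36a. Rpl36a had 2192 and 2657 normalized counts in control and 2696 and 1717 in Prmt5sKO. In the other 3 both Prmt5sKO libraries were higher than both control libraries. Comparing only the libraries with high Xist, the deeper control and the shallower Prmt5sKO library, Rps4x had 8002 and 9078, Rpl10 4761 and 5761, and Rpl39 1164 and 1921. Comparing only those with low Xist, the shallower control and the deeper Prmt5sKO library, Rps4x had 7999 and 16590, Rpl10 4732 and 7254, and Rpl39 1536 and 3702. These 3 genes were taken because their groups did not overlap, so their direction in each pair follows from that choice. Rpl36a had 2192 and 1717 in the pair with high Xist and 2657 and 2696 in the pair with low Xist, in opposite directions.

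As normalized counts per kilobase of exon, averaged over the 4 libraries, the median member had 2480. The 6 highest were Rplp0 (19982 per kilobase), Rplp1 (16001), Rps15 (13748), Rps2 (13699), Rpl4 (12061) and Rpl32 (10110). Rpl4, a large-subunit protein whose gene hosts 5 small nucleolar RNA rows, had 23521 and 26030 normalized counts in control and 24678 and 22594 in Prmt5sKO, and Rpl32 had 9546 and 10415 in control and 9027 and 9956 in Prmt5sKO, with overlapping groups in both. Rps15 had 8447 and 7020 in control and 11052 and 8125 in Prmt5sKO. Levels per kilobase depend on the exon length in the annotation, which sums the exons of all transcripts of a gene.

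The 6 lowest were Rpl24 (19.6 per kilobase), Rps27rt (53.2), Rps19bp1 (302), Rpl36al (401), Rpl35a (456) and Rpl35 (539). Rpl24, a large-subunit protein, had only 26.0 and 9.08 normalized counts in control and 29.6 and 16.1 in Prmt5sKO. Exons of other genes cover 47.0% of its exon bases, and 81.7% of its transcript is repeated in transcripts of other genes, so this low value may miss reads and says little about the gene's level. Rpl35a had 1648 and 1799 in control and 1635 and 1353 in Prmt5sKO. Its summed exons span 3526 bases, against 491 in the transcript searched for repeats, so its low rank depends on the exon length used. In all, exons of other genes, on either strand, cover more than 20% of the exon bases of 11 members.

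Several members have a close relative among the members, and their ratio within a library does not depend on scaling between libraries. Rps27l had 59.5% and 53.8% of the reads per kilobase of Rps27 in control and 114% and 109% in Prmt5sKO. Since 98.6% of the Rps27 transcript and 22.4% of the Rps27l transcript is repeated in other genes, the 2 genes can lose reads to an unequal extent, and these percentages do not show which mRNA was the more frequent. They also rest on exons summed over all transcripts, 816 bases for Rps27l and 1043 for Rps27. The transcripts searched for repeats have 499 and 345 bases, and with these lengths every percentage would be lower. The log2 difference between the groups does not depend on the length. The mean log2 ratio was -0.82 ± 0.10 in control and 0.16 ± 0.04 in Prmt5sKO (SD, n = 2), a difference of 0.98 with groups that did not overlap (exact two-sided permutation p = 0.33, the smallest possible). Rps27 itself had 3353 and 2771 normalized counts in control and 3042 and 2577 in Prmt5sKO, with overlapping groups.

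Rpl7l1, a nucleolar relative of Rpl7, had 22.3% and 17.3% of the reads per kilobase of Rpl7 in control and 13.2% and 16.8% in Prmt5sKO, where the groups did not overlap (exact permutation p = 0.33). Rpl7l1 had 2599 and 2529 normalized counts in control and 1949 and 2038 in Prmt5sKO, and Rpl7 8955 and 11270 in control and 11312 and 9323 in Prmt5sKO. Rpl22l1 had 28.8% and 38.2% of Rpl22 in control and 55.7% and 29.2% in Prmt5sKO, and Rpl36al had 29.8% and 21.3% of Rpl36a in control and 27.9% and 39.8% in Prmt5sKO. Both of these ratios overlapped between the groups (exact permutation p = 0.667 each).

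Rps27rt had 1.03% and 1.57% of Rps27 in control and 0.951% and 4.46% in Prmt5sKO. With 12.4 and 15.6 normalized counts in control and 10.4 and 41.2 in Prmt5sKO it was nearly absent, and 91.1% of its transcript is repeated elsewhere. Rpl3 had 17197 and 18519 normalized counts in control and 26406 and 14938 in Prmt5sKO, and its relative Rpl3l was not analysed here. Over the 5 pairs compared, Benjamini-Hochberg adjustment cannot bring a p below the smallest possible 0.33.

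**Figure D3:**
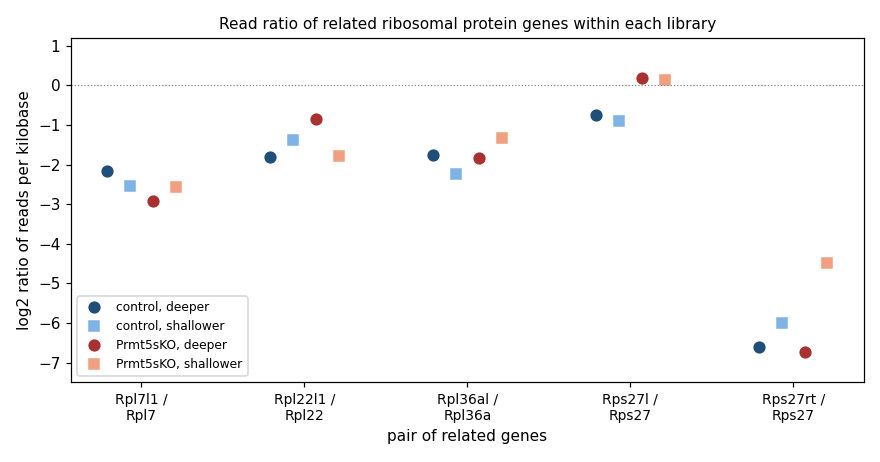
Log2 ratio of reads per kilobase between related ribosomal protein genes (y axis) for 5 pairs (x axis) in each of the 4 libraries, with 0 marking equal counted reads per kilobase. For Rps27l over Rps27 both control libraries lie below 0, at -0.75 and -0.89, and both Prmt5sKO libraries above it, at 0.19 and 0.13. Where a pair lies relative to 0 depends on the exon lengths used, while the differences between libraries do not.

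Ribosomal protein genes have many processed pseudogenes, and according to the study's overview of its runs, reads that mapped to several locations were not assigned. Of all stretches of 50 bases in a member's transcript, a median of 52.1% also occurred in transcripts of other genes, from 0% in Rps19bp1 to 98.6% in Rps27. More than 50% was shared in 43 members and more than 80% in 16. The 133 rows of named pseudogenes of members took 148 and 103 RPM in control and 75.3 and 185 in Prmt5sKO, far below the members. With these reads added to the members, their median log2 fold change stayed at 0.03. Since 0 genes were called with or without them, the calls could hardly show an effect. Only assigned reads could be added, so how many reads of the members were lost to pseudogenes was not tested. Across the 83 members, which share libraries and depth, the shared percentage had a Spearman rho of 0.02 with the log2 fold change and of 0.10 with the excess of the deeper Prmt5sKO library over the mean of the other libraries. With the members split evenly by shared sequence, from the least to the most, the deeper Prmt5sKO library was the highest for 13 of 28, 17 of 28 and 18 of 27, and the median log2 excess of this library over the mean of the others was 0.06, 0.22 and 0.35. The same study overview lists longer reads for the mutant library that corresponds to the deeper one here, and whether read length moves the number of assigned reads was not tested.

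**Figure D4:**
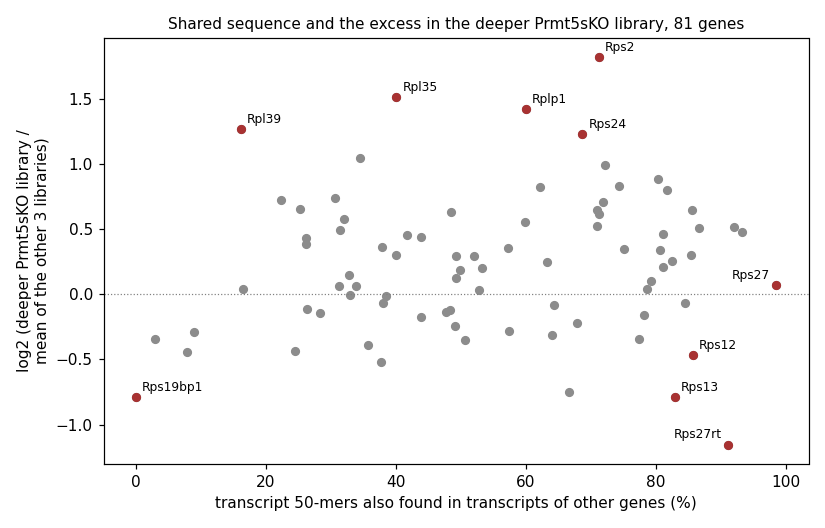
For 81 genes, the percentage of transcript 50-base stretches that also occur in transcripts of other genes (x axis) and the log2 ratio of the deeper Prmt5sKO library to the mean of the other 3 libraries (y axis), with selected genes in red. Genes with a large excess, such as Rpl39 at 16.2% and Rps2 at 71.3% shared, lie across much of the x axis, while the median excess is 0.06 in the 28 genes with the least and 0.35 in the 27 with the most shared sequence.

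Small nucleolar RNA rows lay within 23 of the members on the same strand. The median log2 fold change was 0.08 in these members and 0.01 in the 60 others. By their start sequence, the 14 members with a run that opened at the start had a median of -0.02. The median was 0.06 for the 18 with a run near the start, and 0.14 for the 31 with no run so defined. The deeper Prmt5sKO library was the highest for 6, 10 and 19 of them, respectively. Members such as Rpl7a and Rps9, with a stretch of C and T that crosses the listed start, count as having no run by this definition. The split therefore does not separate TOP starts from others.

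A few further proteins of the cytosolic ribosome carry other names. Fau, whose product is cleaved to Rps30, had 2704 and 2423 normalized counts in control and 1930 and 2006 in Prmt5sKO (log2 fold change -0.38, adjusted p = 0.453 in limma-voom). Rack1, the scaffold at the head of the small subunit, had 26705 and 23782 in control and 22302 and 22803 in Prmt5sKO (-0.16). Both were lower in both Prmt5sKO libraries, and in neither was the deeper Prmt5sKO library the highest.

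Other genes of translation with TOP starts, mainly elongation and initiation factors, numbered 20 and centred on a log2 fold change of -0.05 (median), with 6 higher and 6 lower in both Prmt5sKO libraries (25.2% and 23.6% of all genes). Eef1a1, which delivers aminoacyl-tRNA to the ribosome, had 78338 and 87172 normalized counts in control and 171090 and 93255 in Prmt5sKO. As in Rps2 the deeper Prmt5sKO library stood far above the others, but unlike in Rps2 the groups did not overlap. For 3 of these genes the unadjusted p was under 0.05, as for 13.0% of all genes. Tpt1, which encodes a growth-associated protein, had 12966 and 8738 in control and 19377 and 15975 in Prmt5sKO. Pabpc1, the poly(A)-binding protein, had 15205 and 19719 in control and 11291 and 10617 in Prmt5sKO. Npm1, a nucleolar chaperone, had 4290 and 7982 in control and 3189 and 2345 in Prmt5sKO.

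Factors that build ribosomes had mostly lower values in Prmt5sKO. Of 44 genes for rRNA processing and ribosome assembly 43 were tested. Of these, 32 were lower in both Prmt5sKO libraries (23.6% of all genes) and 0 were higher in both (25.2%). Among 5424 other protein-coding genes at the levels of the ribosomal protein genes, 1657 were lower in both. The median log2 fold change was -0.49, with 18 genes at an unadjusted p under 0.05, all lower, and 0 called. Lower with such a p were 6.95% of all genes and 659 of those 5424. Set against control, the deeper Prmt5sKO library had a median difference of -0.46 and the shallower one of -0.54. Ncl, the nucleolar protein nucleolin, had 17660 and 23773 normalized counts in control and 11994 and 8365 in Prmt5sKO. Nop56, a core protein of the box C/D particles that guide rRNA methylation, had 4011 and 4348 in control and 2189 and 1972 in Prmt5sKO (log2 fold change -1.01, adjusted p = 0.231 in limma-voom). Both genes were lower in both Prmt5sKO libraries.

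Fbl, the rRNA methyltransferase fibrillarin, had 1653 and 1729 normalized counts in control and 1125 and 882 in Prmt5sKO. Dkc1, whose product dyskerin converts uridine to pseudouridine in rRNA, had 2331 and 2414 in control and 1411 and 1210 in Prmt5sKO. For RNA polymerase I and its factors the median log2 fold change over 15 genes was -0.17, with 7 lower (23.6% of all genes) and 0 higher in both Prmt5sKO libraries. Of them, 1 had an unadjusted p under 0.05 (13.0% of all genes). This was Ubtf, the factor that opens rDNA for transcription, with 4627 and 5223 in control and 3756 and 2762 in Prmt5sKO. Of 7 chaperones of single ribosomal proteins 6 were tested, with a median of -0.31. Both Prmt5sKO libraries were below control in 4 and above it in 2, beside 23.6% and 25.2% of all genes. The 1 with an unadjusted p under 0.05 (13.0% of all genes) was Aamp, with 1639 and 1406 in control and 2158 and 2509 in Prmt5sKO.

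Over the 76 mitochondrial ribosomal protein genes the median log2 fold change was -0.15, with 9 higher and 26 lower in both Prmt5sKO libraries, beside 25.2% and 23.6% of all genes. The deeper Prmt5sKO library was the highest for 8 of them, beside 48 of 83 cytosolic members, and this difference was not tested. Of 19 regulators of mTOR and of TOP mRNAs 4 were higher and 7 lower in both Prmt5sKO libraries (25.2% and 23.6% of all genes), with a median of -0.18. Among these regulators, 3 were higher and 4 lower with an unadjusted p under 0.05 in limma-voom (6.01% and 6.95% of all genes). Larp1 had 5254 and 7828 normalized counts in control and 3475 and 3601 in Prmt5sKO and was lower in both. Among mTOR inhibitors, Sesn2, with 527 and 533 in control and 803 and 1212 in Prmt5sKO, was higher in both. So was Ddit4, with 427 and 208 in control and 565 and 702 in Prmt5sKO. Sesn1 and Tsc2 were higher in both as well, while Tsc1 and Akt1s1 overlapped between the groups. Eif4ebp1 and Eif4ebp2 were lower in both. The median log2 fold change of the 12 replication markers was -1.22, and 11 were lower in both Prmt5sKO libraries (23.6% of all genes). Lower with an unadjusted p under 0.05 in limma-voom were 11 of these markers (6.95% of all genes). The median of the ribosomal protein genes was 0.03. None of these genes was called.

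**Figure D5:**
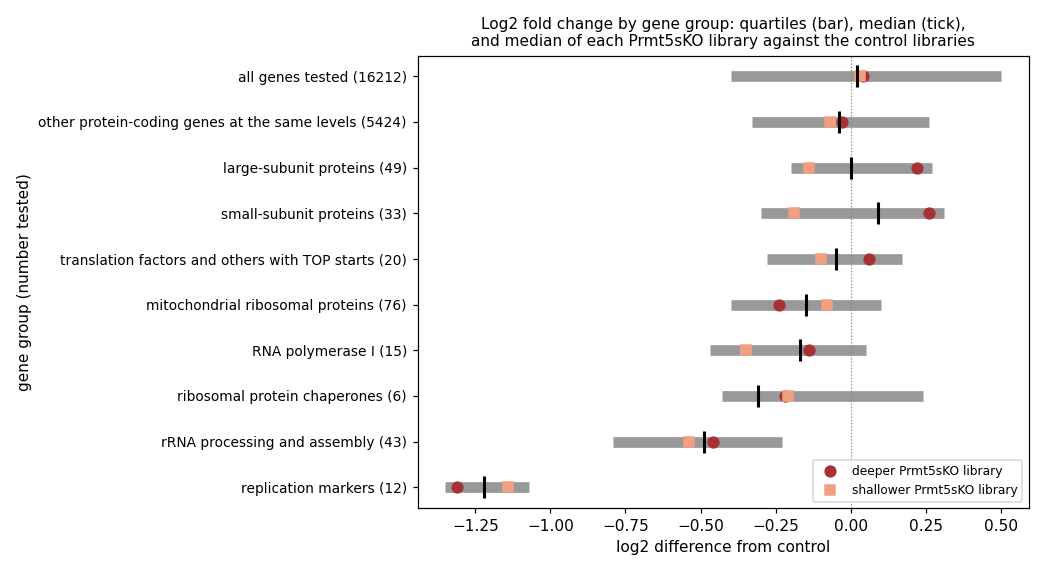
Log2 difference between Prmt5sKO and control (x axis) for groups of genes (y axis, with the number tested). Grey bars span the quartiles and black ticks mark the medians of the log2 fold change, and the circle and square mark the median of the deeper and the shallower Prmt5sKO library against the control libraries. The ribosomal protein medians lie at 0.00 and 0.09 with the 2 libraries on either side, while rRNA processing genes lie at -0.49 with both libraries below 0.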

How the data were processed

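Reads were aligned by the authors with STAR 2.4.0a to GRCm38 and counted for each gene, and the authors tested the difference with DESeq2 (version given as 1.62), per the labels and the study's methods. RNA had been depleted of ribosomal RNA and sequenced on an Ion Torrent platform. The deposited table holds signal values, the authors' means of normalized counts for each group and for all libraries, and also the authors' log2 fold changes with errors and p-values, which were not used here. Since the deposited signal values are group means, replicates had been averaged. The whole read counts behind them were worked out for every library from the step sizes in these means, which succeeded for 100% of the 20065 genes. The recovery and the fit were tested on simulated data. The columns carry no replicate numbers, so libraries are named by depth.

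Counts were scaled by TMM (own code, trims of 30% and 5%), a mean of 5 or more normalized counts was required, and groups were compared with limma-voom (limma 3.58.1, R 4.3.3) with Benjamini-Hochberg adjustment. The spread rests on 2 libraries a group. Summed reads and ratios were compared with exact permutation tests over the 4 libraries, and the differences between gene groups were not tested. Gene symbols and exons came from GENCODE M21, which held 19782 of the identifiers, shared sequence from its transcripts in stretches of 50 bases, and start windows from RefSeq. Members and gene lists were chosen with earlier results of these data known, and the genes given with values were the 8 highest and 8 lowest members by log2 fold change, the 6 highest and 6 lowest per kilobase, and members and list genes chosen by role or as relatives. A few genes that this rule includes are not reported here, but remain in the counts and medians. Within the longer lists, the genes given with values were chosen after their values were seen. Alternatives were another scaling, no filter, limma-trend, a replicate block, added pseudogene reads and leaving out each library.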

Additional observations from a re-analysis of the deposited data

How the results depend on the processing

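No member was called under the other scalings (median-of-ratios size factors or library size only), without the filter, with limma-trend or with pseudogene reads added, and the median log2 fold change of the members stayed between 0.01 and 0.14 outside the fits without a Prmt5sKO library. Scaling by library size alone moved the median of all genes to 0.13 and that of the members to 0.14. Leaving out each library in turn gave 0 to 489 called genes, 0 to 1 called members, a median from -0.16 to 0.22, and a difference in summed reads from -1674 to 13800 RPM against 6063 RPM with all libraries; the -1674, a reversed direction, came without the deeper Prmt5sKO library. Without this library 489 genes were called, and without the shallower one 55, Rps2 among them, and 25 members had an unadjusted p under 0.05 (16.2% of all genes). The difference in summed reads was 6068 with pseudogene reads, 5642 without transcripts of rRNA type and Lars2, 4474 per 1000000 protein-coding reads and, chosen after seeing the data, 4681 without Rps2.

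The columns carry no replicate numbers and the libraries were not paired by such numbers here, so both pairings were run. With the replicate block over the deeper and over the shallower libraries 0 genes were called, and with the crossed replicate block 346 genes (2.13%) and 0 members, where the smallest adjusted p of a member was 0.0702. Deviations correlated at 0.24 in the crossed pairing over 10398 genes. With 2 libraries a group the other pairing must give the same value with the opposite sign, -0.24. The crossed pairing joins libraries that are alike in Xist.

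Over 43 members examined singly, 24 single values changed sign, and none of them passed the test. By library size alone, Rpl32 was 0.03, Rpl4 0.04 and Rplp0 0.10. Rplp0 was 0.0012 without the filter and 0.0024 with limma-trend, and Rpl23 was -0.0031 with median-of-ratios factors. Without the deeper Prmt5sKO library, Rpsa was -0.11, Rpl5 -0.14, Rpl11 -0.29, Rpl23 -0.04, Rpl38 -0.12, Rpl7 -0.11, Rpl22 0.10, Rpl22l1 -0.08 and Rpl3 -0.26. Without the shallower one, Rps27rt was -0.43, Rplp0 0.35 and Rpl36a 0.16. Without the shallower control library, Rpl24 was -0.20, Rpl4 0.01, Rpl23 -0.02 and Rpl38 -0.13, and without the deeper one Rpl7 was -0.15 and Rpl22l1 -0.19. The cause was not tested.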
